A study of Mus musculus with 10 samples.

Results

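Purinergic signalling was described through 10 genes. Of these, 3 encode enzymes that take part in making or removing adenosine (Entpd1, Nt5e and Ada) and 3 encode adenosine receptors (Adora2a, Adora2b and Adora3). The other 4 encode receptors for extracellular nucleotides (P2rx4, P2rx7, P2ry6 and P2ry12). All 10 genes were found by symbol, with 1 row each among the 55487 gene rows of the table. They were measured in bulk RNA from the tumours of mice with the wild-type Ptpn22 gene (PepWT, here WT) or with a serine of its product, the phosphatase Pep, replaced by alanine (PepS452A, here S452A), with 5 libraries of each genotype. In both groups MC38, a colon carcinoma line of the mouse, was injected when the animals were 8 weeks old, tumours were taken 18 days later and digested, and cells were sorted that the labels call CD8+ T cells. The genotype is that of the host and not of the injected line. The sample titles number the mice, the labels state neither strain nor sex, and they do not say whether a library is 1 animal or a pool.

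ATP released by stressed or dying cells acts on ion channels of the P2X family and, with other nucleotides, on G protein-coupled receptors of the P2Y family. On the cell surface the product of Entpd1 (CD39) cuts ATP and ADP to AMP, and that of Nt5e (CD73) cuts AMP to adenosine. Adenosine deaminase, encoded by Ada, turns adenosine into inosine. Adenosine restrains T cells and changes macrophage behaviour, mainly through receptors that raise cyclic AMP, and for this reason the pathway is much studied in tumours.

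The libraries went against their label, since macrophage transcripts were abundant and those of CD8 T cells low. The 12 macrophage marker genes had a summed level of 17922 to 24899 TPM (a share of all transcripts in the library, scaled to gene length) in WT and 18760 to 24320 in S452A. The 8 CD8 T cell markers summed to 12.1 to 126 TPM in WT and 15.0 to 135 in S452A, with Cd8a at 0.27 to 14.5 TPM and Cd3e at 0.11 to 6.79. In bulk RNA of this kind, fewer cells of a type and less RNA per cell cannot be told apart. TPM keeps no counts, so the depth is unknown and no counting interval can be given. Library totals were 1000000 TPM within rounding, and 13677 to 14388 genes reached 1 TPM in a library.

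All 10 genes passed the expression filter (at least 1 TPM in at least 5 libraries), and they lay at widely different levels. Averaged over the 10 libraries, P2rx4 was highest at 92.0 ± 16.4 TPM (SD, n = 10), followed by Entpd1 at 83.3 ± 22.8, P2ry6 at 58.7 ± 9.53 and Adora2b at 54.6 ± 16.2. P2rx7 at 35.7 ± 7.44, Nt5e at 30.6 ± 5.86 and Adora2a at 26.2 ± 11.3 TPM formed a middle range. P2ry12 was at 8.93 ± 3.68, Ada at 4.62 ± 0.955 and Adora3 at 1.25 ± 0.634 TPM. Among the 13930 genes tested, the mean of P2rx4 stood at percentile 89.4, that of Adora2a at 69.2 and that of Adora3 at 3.27. Neighbours in the upper part of this order were not separated in every library. P2rx4 was above Entpd1 in 8 of 10 libraries, P2ry6 above Adora2b in 7, P2rx7 above Nt5e in 7 and Nt5e above Adora2a in 6. For each of these pairs the mean log2 ratio was smaller than its SD between libraries. Adora2a exceeded P2ry12, and Ada exceeded Adora3, in 10 of 10 libraries. Together the 10 genes summed to 313 to 510 TPM in a library, lowest in S452A library 2 and highest in S452A library 3.

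**Figure D1:**
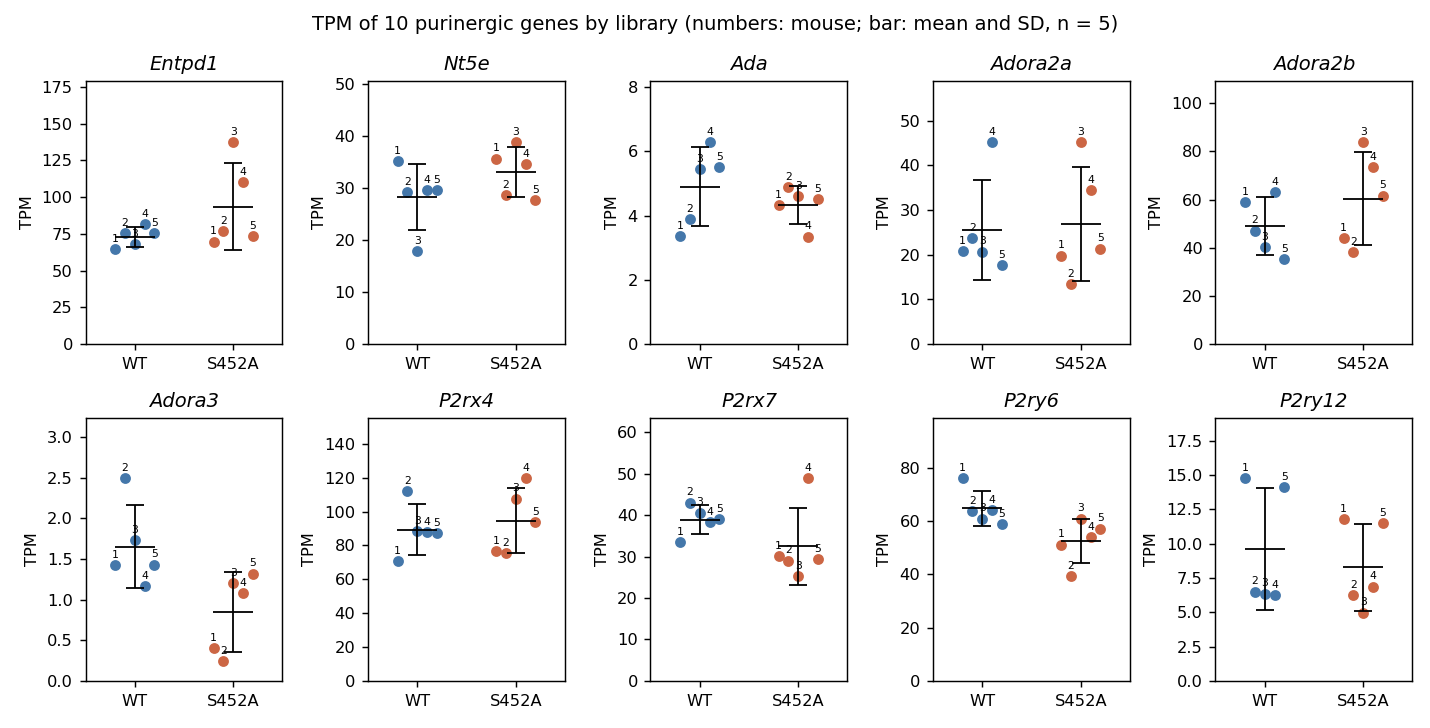
TPM of each of the 10 genes (y axis, linear, from 0) in the 5 WT and 5 S452A libraries; points are libraries numbered by mouse, and bars are the mean and SD. The libraries of the genotypes overlap for all 10 genes, and Adora2a stands highest in WT library 4 (45.25 TPM) and S452A library 3 (45.16 TPM).

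None of the 10 genes passed the test of S452A against WT after adjustment over all tested genes (limma, adjusted p 0.952 to 0.997), where 0.00718% of all tested genes did (1 of 13930). At an unadjusted p under 0.05, 2 of the 10 genes, P2ry6 and Adora3, were lower in S452A, and the share of all tested genes lower at this limit was 2.73%. It was 2.01% for genes higher in S452A and 4.74% in either direction. By 2-sided exact permutation of the TPM values the same 2 genes had an unadjusted p under 0.05. The libraries of the 2 genotypes overlapped for all 10 genes, against a share of 0.646% of tested genes with no overlap. As log2(TPM + 1), 5 of the 10 genes were higher and 5 lower in S452A, with a median difference of -0.05. Among all tested genes 46.6% were higher, with a median of -0.02. The 95% interval lay within 1 log2 unit on either side for 9 of the 10 genes, and for Adora3 it reached -1.07. Over all tested genes this share was 86.9%. Pseudocount 1 was used, so these differences understate the change of genes at low TPM.

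**Figure D2:**
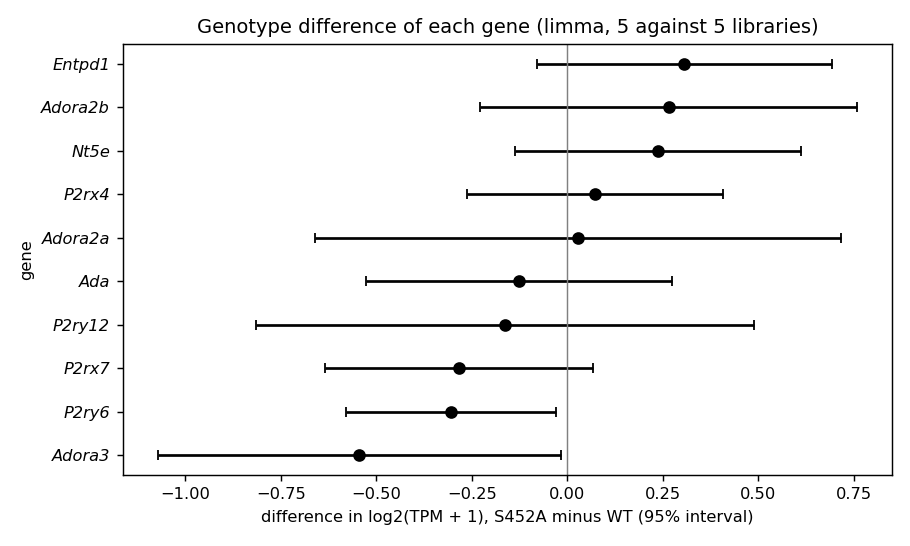
Difference in log2(TPM + 1), S452A minus WT (x axis), with its 95% interval for each gene (y axis), from the limma fit over all tested genes. The intervals of P2ry6 (-0.58 to -0.03) and Adora3 (-1.07 to -0.02) exclude 0 before adjustment and none passes after it.

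Of the enzymes, Entpd1 (ENSMUSG00000048120.16, chromosome 19, 40612366 to 40741602, plus strand, GRCm38) was the most abundant. Its level in WT libraries 1 to 5 was 64.69, 75.40, 68.06, 81.78 and 75.45 TPM, and in S452A libraries 1 to 5 it was 69.80, 76.83, 137.63, 110.12 and 73.48 TPM. The WT libraries lay close together, while S452A libraries 3 and 4 stood above all others and the remaining 3 S452A libraries fell within the WT range. The difference was 0.31 (SE 0.18, 95% interval -0.08 to 0.69, limma adjusted p = 0.952, exact permutation p = 0.214). Leaving out S452A library 3 reduced it to 0.15.

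Nt5e (ENSMUSG00000032420.8, chromosome 9, 88327197 to 88372092, plus strand) makes adenosine from the AMP that CD39 leaves. It was at 35.15, 29.23, 17.83, 29.57 and 29.51 TPM in WT libraries 1 to 5 and at 35.58, 28.62, 38.83, 34.52 and 27.60 TPM in S452A libraries 1 to 5. Apart from the low WT library 3, all values lay between 27.60 and 38.83 TPM. The difference was 0.24 (SE 0.17, limma adjusted p = 0.952, 95% interval -0.14 to 0.61). Without WT library 3 it was 0.087. Entpd1 exceeded Nt5e in 10 of 10 libraries, by a ratio of 1.84 to 3.82.

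Ada (ENSMUSG00000017697.3, chromosome 2, 163726584 to 163750239, minus strand), whose product removes adenosine, was low throughout. It was at 3.36 to 6.30 TPM in WT (median 5.46) and 3.35 to 4.89 in S452A (median 4.51), a difference of -0.13 (SE 0.18, limma adjusted p = 0.961). Nt5e lay 3.27 to 10.5 times above Ada in each library.

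Among the adenosine receptors, Adora2a and Adora2b, which both couple to the stimulatory G protein and raise cyclic AMP, were the abundant ones. Adora2a (ENSMUSG00000020178.6, chromosome 10, 75316877 to 75334784, plus strand) encodes the receptor of high adenosine affinity. It was at 20.84, 23.69, 20.68, 45.25 and 17.60 TPM in WT libraries 1 to 5 and at 19.80, 13.49, 45.16, 34.53 and 21.39 TPM in S452A libraries 1 to 5. WT library 4 and S452A libraries 3 and 4 were high, and the other 7 libraries lay between 13.49 and 23.69 TPM, in both genotypes. The difference was 0.03 (SE 0.32, limma adjusted p = 0.997, 95% interval -0.66 to 0.72). Leaving out 1 library moved it from -0.18, without S452A library 3, to 0.25, without WT library 4.

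Adora2b (ENSMUSG00000018500.2, chromosome 11, 62248984 to 62266453, plus strand) encodes the receptor of lower affinity, which responds when adenosine is abundant. In WT libraries 1 to 5 it was at 59.09, 47.11, 40.29, 63.17 and 35.40 TPM, and in S452A libraries 1 to 5 at 43.92, 38.30, 83.96, 73.48 and 61.61 TPM. S452A libraries 3 and 4 were highest, and S452A libraries 1, 2 and 5 lay within the WT range. The difference was 0.27 (SE 0.23, limma adjusted p = 0.952, 95% interval -0.23 to 0.76). Without S452A library 3 it was 0.13. Adora2b exceeded Adora2a in 10 of 10 libraries, by a ratio of 1.40 to 2.88.

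Adora3 (ENSMUSG00000000562.5, chromosome 3, 105870858 to 105908926, plus strand), the receptor coupled to the inhibitory G protein and best known from mast cells, was barely detected. It was at 1.42, 2.49, 1.73, 1.17 and 1.43 TPM in WT libraries 1 to 5 and at 0.40, 0.24, 1.20, 1.08 and 1.32 TPM in S452A libraries 1 to 5. S452A libraries 1 and 2 were lowest, and the groups overlapped only between 1.17 and 1.32 TPM. The difference was -0.54 (SE 0.24, 95% interval -1.07 to -0.02, limma unadjusted p = 0.0444, adjusted p = 0.952, exact permutation p = 0.0238). It was -1.05 with a pseudocount of 0.1 and -0.19 with a pseudocount of 5. The 5 mast cell markers summed to 7.29 to 15.7 TPM in WT libraries and to 11.4 to 18.9 in S452A libraries. Cpa3 and Mcpt4 averaged 1.85 and 5.69 TPM in WT against 1.71 and 5.41 in S452A, while Tpsb2 (3.77 against 4.94), Kit (0.638 against 1.16) and Fcer1a (0.41 against 1.06) had the higher mean in S452A. Of the 3 that passed the filter, 0 passed the test, before adjustment or after it (limma). Their part in the level of Adora3 was not tested.

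Adora3 shares 779 of its 3729 annotated exon bases (20.9%) with Tmigd3, a protein-coding gene on the same strand, and the way reads from the shared bases were divided is not known. Tmigd3 was listed at 1.16 TPM in WT library 4, at 0.13 in S452A library 2 and at 0 in the other 8 libraries. The sum of Adora3 and Tmigd3 was an alternative chosen after the values were seen. It was 1.42 to 2.49 TPM in WT and 0.37 to 1.32 in S452A, with no overlap, against 0.646% of tested genes with none. The lack of overlap came from 1 value, since Tmigd3 raised WT library 4 from 1.17 to 2.33 TPM. The exact permutation p of the sum was 0.00794, the smallest that 5 against 5 libraries can give, and the log2 difference was -0.64 (SE 0.23, limma unadjusted p = 0.0166, adjusted p = 0.952). Adora3 starts 1.96 Mb beyond the end of Ptpn22, the mutated gene, on the same chromosome.

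**Figure D3:**
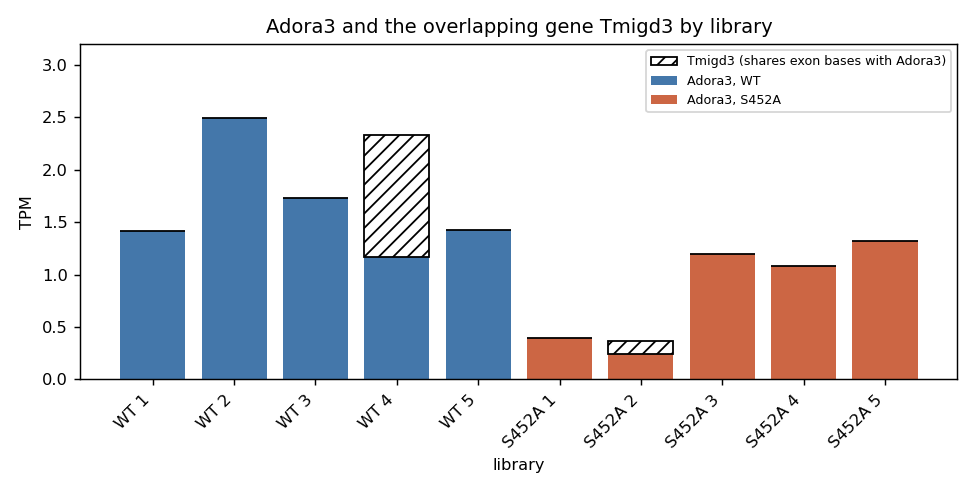
TPM of Adora3 (filled bars) with Tmigd3 stacked on it (hatched) in each library (x axis); WT libraries are blue and S452A libraries orange. The sums lie at 1.42 TPM or above in the 5 WT libraries and at 1.32 TPM or below in the 5 S452A libraries. Adora3 alone is at 1.17 TPM in WT library 4, within the range of S452A.

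Of the nucleotide receptors, P2rx4 and P2rx7, which encode ATP-gated cation channels, are neighbours on the plus strand of chromosome 5. P2rx4 (ENSMUSG00000029470.15, 122707544 to 122729738) encodes a channel opened by low ATP. It was at 70.69, 112.15, 88.61, 87.90 and 87.40 TPM in WT libraries 1 to 5 and at 76.42, 75.57, 107.57, 119.50 and 93.87 TPM in S452A libraries 1 to 5. The highest and lowest libraries of each genotype interleaved, and the difference was 0.07 (SE 0.15, 95% interval -0.26 to 0.41, limma adjusted p = 0.971).

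P2rx7 (ENSMUSG00000029468.17, 122643911 to 122691432) encodes the channel that needs high ATP and triggers the NLRP3 inflammasome in macrophages. It was at 33.42, 42.99, 40.60, 38.32 and 38.93 TPM in WT libraries 1 to 5 and at 30.11, 29.02, 25.24, 48.82 and 29.28 TPM in S452A libraries 1 to 5. In S452A 4 of 5 libraries lay below every WT library, and S452A library 4 lay above them all. The difference was -0.28 (SE 0.16, 95% interval -0.63 to 0.07, limma adjusted p = 0.952, exact permutation p = 0.198). Without S452A library 4 it was -0.44, and it did not pass there either. P2rx4 exceeded P2rx7 by 2.12 to 2.61 times in the WT libraries and by 2.45 to 4.26 times in S452A.

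P2ry6 (ENSMUSG00000048779.5, chromosome 7, 100937630 to 100974649, minus strand) encodes a receptor for UDP that promotes uptake of debris by phagocytes. It was at 76.09, 63.80, 61.02, 64.34 and 58.79 TPM in WT libraries 1 to 5 and at 51.23, 39.52, 60.97, 54.13 and 57.24 TPM in S452A libraries 1 to 5. In S452A 4 of 5 libraries lay below every WT library, and S452A library 3 overlapped only with WT library 5. The difference was -0.30 (SE 0.13, 95% interval -0.58 to -0.03, limma unadjusted p = 0.0331, adjusted p = 0.952, exact permutation p = 0.0159). Leaving out 1 library gave -0.36 to -0.21, the smallest change without S452A library 2, and the sign was negative in each of 21 alternatives.

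P2ry12 (ENSMUSG00000036353.13, chromosome 3, 59216272 to 59262871, minus strand) encodes the ADP receptor known from platelets and microglia. It was at 14.74, 6.51, 6.35, 6.26 and 14.13 TPM in WT libraries 1 to 5 and at 11.77, 6.23, 4.98, 6.86 and 11.48 TPM in S452A libraries 1 to 5. Its values fell into separate sets in both genotypes, with 4 libraries at 11.48 to 14.74 TPM and 6 at 4.98 to 6.86. The difference was -0.16 (SE 0.30, 95% interval -0.81 to 0.49, limma adjusted p = 0.966). Because of this gap no correlation is given for P2ry12, and the 2 sets were not tested against each other. The platelet markers Gp9 and Gp1bb reached at most 0.13 and 0.41 TPM. Ppbp was 0.38 to 10.03 TPM in the 4 libraries high in P2ry12 and highest in WT library 4 (44.4 TPM). Itga2b was highest in S452A library 5 (3.39 TPM) and lowest in WT library 5 (0.24 TPM), both among those 4. The 6 microglia markers summed to 166 to 313 TPM in WT and 137 to 211 in S452A, mostly Tmem119 and Cx3cr1. Tmem119 was highest in WT library 1 (206 TPM), WT library 5 (149) and S452A library 5 (144), 3 of the 4 libraries high in P2ry12, and Cx3cr1 in WT library 1 (81.2) and S452A library 1 (63.7). Gpr34 and Olfml3 were high in WT libraries 1 and 5, but S452A library 5 was the lowest of all 10 for both (0.48 and 13.8 TPM). Sall1 and Siglech reached at most 0.33 and 0.55 TPM. The part of such cells in the level of P2ry12 was not tested.

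Among pairs of the 10 genes, the closest relation between libraries was that of Adora2a and Adora2b (Pearson r = 0.83, permutation p = 0.00223, Spearman rho = 0.90, permutation p = 0.00072, n = 10 libraries). Over the 45 pairs that the 10 genes form, their Pearson value did not pass adjustment (adjusted p = 0.10) and their Spearman value did (adjusted p = 0.0324). The Pearson count was 0 of 45 pairs after adjustment and 5 before it, and the Spearman count was 1 after adjustment and 2 before it. With the genotype means removed r was 0.87 (permutation, adjusted p = 0.0301). That permutation shuffled all 10 values freely and took no account of the fitted means. Its p is therefore too small, and it cannot show that the pair passes by Pearson. Without the 2 libraries farthest from the median of Adora2a, r was 0.78 (permutation p = 0.0142). The 3 libraries high in Adora2a stood apart from the other 7, and within those 7, a subset chosen after the values were seen, r was 0.58 (permutation p = 0.170) and rho 0.82 (permutation p = 0.0357). The labels give no batch, and each pair shares its libraries and their composition. Genes outside the 10 were closer, such as Plekhm2 to Adora2a (r = 0.97) and Msl2 to Adora2b (r = 0.96), the highest of 6552 candidates. The share of all genes that reach r = 0.83 with either receptor was not counted.

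Entpd1 was high where these receptors were high, in S452A libraries 3 and 4. Its Pearson r was 0.71 with Adora2a (permutation p = 0.0228), 0.70 with Adora2b (p = 0.0140) and 0.68 with P2rx4 (p = 0.0262), with adjusted p of 0.209 to 0.236 over the 45 pairs. Without the 2 libraries farthest from the median of Entpd1 r was 0.38, 0.02 and 0.42. Leaving out the extremes of Entpd1 narrows its range and so lowers r, and this cannot tell how far the relations rest on few libraries. Adora3 and P2ry6, the genes with the lowest unadjusted p between genotypes, had r = 0.77 (permutation p = 0.0116, adjusted p = 0.209), which was 0.60 with the genotype means removed and 0.26 without the 2 farthest libraries. Without WT library 1, 3 pairs passed the Pearson adjustment, namely Adora2a with Adora2b, Entpd1 with Adora2b and Adora3 with P2ry6 (adjusted p = 0.0493 for each).

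**Figure D4:**
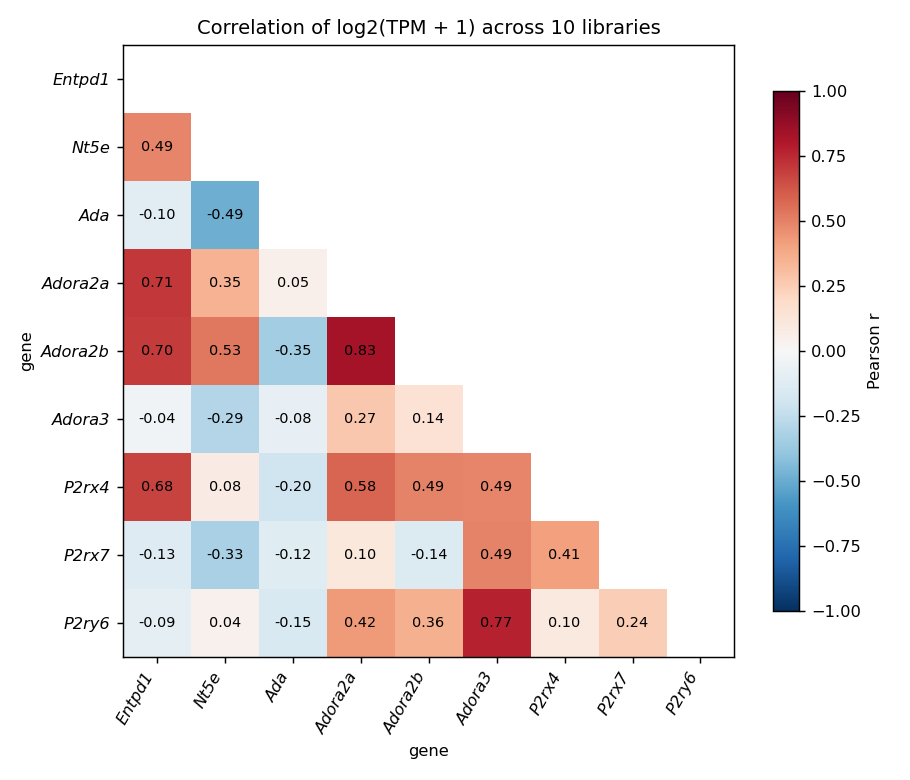
Pearson r of log2(TPM + 1) across the 10 libraries for the 36 pairs of 9 genes (both axes list genes), with P2ry12 left out because its values fall into separate sets. The values run from -0.49 to 0.83, and the highest is that of Adora2a with Adora2b.

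The sequences just upstream of Entpd1 and of Adora2b and P2rx4 are shown because Entpd1 paired with both at an unadjusted p under 0.05. Promoter sequences from RefSeq (GRCm38.p6) matched 8 of the 10 genes, not Adora2a and P2ry6. Each window holds the 250 bases before a start site and overlaps no annotated exon. Windows that overlap an exon were left out, among them another window of Entpd1. That of Entpd1 belongs to a start inside an intron of the gene, at chr19:40659520-40659769, that of Adora2b lies at chr11:62248734-62248983 and that of P2rx4 at chr5:122707294-122707543, all on the plus strand. Capitals mark matches on either strand to GGGCGG (the GC box), ACGTG (the core of hypoxia elements) and TGACG (the cyclic AMP element core).
Entpd1: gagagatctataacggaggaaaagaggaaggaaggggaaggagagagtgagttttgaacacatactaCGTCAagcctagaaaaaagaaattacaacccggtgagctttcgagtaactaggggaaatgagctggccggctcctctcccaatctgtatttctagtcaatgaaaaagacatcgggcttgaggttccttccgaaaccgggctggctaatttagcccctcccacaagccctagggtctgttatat
Adora2b: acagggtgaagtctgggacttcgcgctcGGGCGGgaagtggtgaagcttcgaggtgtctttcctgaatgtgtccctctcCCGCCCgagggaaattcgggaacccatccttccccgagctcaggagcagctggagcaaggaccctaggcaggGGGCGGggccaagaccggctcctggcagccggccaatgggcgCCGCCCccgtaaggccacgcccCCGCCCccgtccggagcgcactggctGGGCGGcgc
P2rx4: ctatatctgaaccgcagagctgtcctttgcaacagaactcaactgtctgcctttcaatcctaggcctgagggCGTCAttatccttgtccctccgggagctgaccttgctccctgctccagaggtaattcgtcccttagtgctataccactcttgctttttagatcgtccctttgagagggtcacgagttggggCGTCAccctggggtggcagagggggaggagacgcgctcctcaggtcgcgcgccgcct
The Adora2b window, of which 69.6% of bases are G or C, held 6 GC boxes. At least 1 is held by 32.7% of the 32851 windows of this length, which include windows that overlap exons. The share of windows with 6 was not counted. Entpd1 held 1 and P2rx4 held 2 matches to TGACG, which 17.8% of windows hold. None of the 3 windows held ACGTG, which 16.6% of windows hold. None of the 3 motifs was in all 3 windows, and a match or its lack in a window of this length says nothing on binding.

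Adora2a was also correlated with genes that act downstream of P2rx7. A list of 6 such genes (Nlrp3, Pycard, Casp1, Gsdmd, Il1b and Il18) was fixed with the other lists, but its correlation with the 10 genes was added after the values were seen. Across libraries Adora2a and the mean log2(TPM + 1) of the list had Pearson r = 0.91 (permutation p = 0.00023, adjusted p = 0.0046 over 20 relations) and Spearman rho = 0.82 (permutation p = 0.00584, adjusted p = 0.117). Leaving out 1 library gave r of 0.87 to 0.94, and removing genotype means 0.94. Without the 2 farthest libraries r was 0.74 (permutation p = 0.0195), which did not pass adjustment. Within the 7 libraries with Adora2a at or below 30 TPM r was 0.54 (permutation p = 0.216) and rho 0.50 (permutation p = 0.267). This subset was cut on Adora2a itself, which lowers r. It cannot tell how far the relation rests on the 3 libraries high in Adora2a. For Entpd1 r was 0.75 and for Adora2b 0.76 (adjusted p = 0.0817 for both), while P2rx7 itself had r = -0.10. The 20 relations also covered a list of 8 genes that carry the signal of Adora2a and Adora2b inside the cell. With that signal list r was 0.36 for Adora2a (permutation, adjusted p = 0.789) and 0.39 for Adora2b (adjusted p = 0.760), and no relation passed. How many genes outside these lists are as close to Adora2a was not counted.

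Of the 6 genes, 3 were highest in the libraries high in Adora2a and 3 were not. Nlrp3, the inflammasome sensor, was at 172 TPM in WT library 4, 217 in S452A library 3 and 210 in S452A library 4, the 3 libraries high in Adora2a, and at 90.6 to 159 TPM in the other 7. Il1b, encoding interleukin 1 beta, was at 4082, 5487 and 4333 TPM in those 3 libraries and at 2777 to 3575 TPM in the others. Il18, a related cytokine, was at 12.9, 15.3 and 12.3 TPM there and at 6.88 to 10.7 in the others. Pycard was at 92.5 TPM in WT library 4 but at 57.9 and 53.6 in S452A libraries 3 and 4, among its lower values. Casp1, the inflammasome protease, was lowest of all 10 libraries in S452A library 4 (44.1 TPM), and Gsdmd, which forms the pore of dying cells, was highest in S452A library 5 (96.1 TPM). With Il1b left out of the list, r with Adora2a was 0.88 (permutation p = 0.00057).

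**Figure D5:**
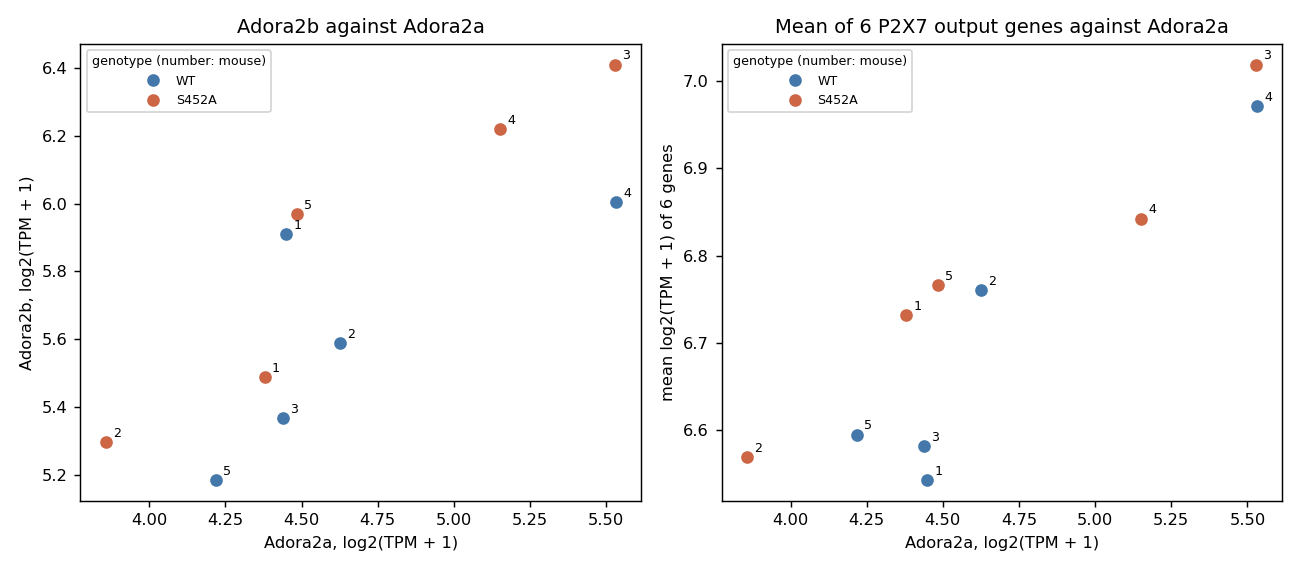
Left, Adora2b against Adora2a, and right, the mean of 6 genes downstream of P2rx7 against Adora2a, all as log2(TPM + 1); points are libraries, coloured by genotype and numbered by mouse. Pearson r is 0.83 on the left and 0.91 on the right, and WT library 4 with S452A libraries 3 and 4 lies at the upper right in both.

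The 10 genes were set against the mean level of 3 marker lists, in 30 relations, none of which passed (Pearson, smallest adjusted p = 0.358, with 4 at an unadjusted p under 0.05, and 0 by Spearman at either limit). With fibroblast markers, r was -0.75 for Entpd1, -0.73 for Nt5e and -0.63 for Adora2b, and with macrophage markers it was 0.64 for Nt5e. Leaving out 1 library gave r with fibroblast markers of -0.82 to -0.37 for Entpd1, -0.80 to -0.48 for Nt5e and -0.73 to -0.38 for Adora2b. With macrophage markers it gave 0.28 to 0.72 for Nt5e. The weakest values came without S452A library 3 for Entpd1 and Adora2b, and without WT library 3 for Nt5e. Without the 2 libraries farthest from the median of the gene, r with fibroblast markers was -0.25 for Entpd1 and 0.19 for Nt5e. With the CD8 T cell markers r ran from -0.37 for P2rx7 to 0.45 for Adora2b. It was 0.33 for Adora2a, 0.25 for Entpd1, -0.06 for P2rx4 and -0.25 for Nt5e. The 7 fibroblast markers summed to 163 to 320 TPM in WT and 73.6 to 225 in S452A, with 7 of 7 lower in S452A. After adjustment 0 passed (limma). At an unadjusted p under 0.05 there were 2, Postn and Col1a2, against 2.73% of all tested genes lower at this limit. The part of fibroblasts in the levels described here was not tested.

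By a fixed rule, the genes most like each of the 10 in pattern were listed (the 3 highest Pearson r of log2(TPM + 1) over 10 libraries, among genes averaging at least 10 TPM), as a description. For Adora2a these were Plekhm2 (r = 0.97), Zfp703 (0.95) and Hnrnph2 (0.95), and for Adora2b Msl2 (0.96), Ifnar1 (0.95), a chain of the type I interferon receptor, and Arl4c (0.94). For Entpd1 they were Fnip1 (0.98), Stx3 (0.96) and Cnot4 (0.95), and those for P2rx4 included Map4k3 (0.97) and Avl9 (0.94). P2rx7 was closest to Ufd1 (0.93), P2ry6 to Gcnt2 (0.87) and Stab1 (0.85), a scavenger receptor, Adora3 to Borcs6 (0.92), Ada to Tmem199 (0.92) and Nt5e to Hccs (0.88). The gene ranked first for P2ry12 was Pcna, the DNA polymerase clamp. Pcna was at 222, 215, 201 and 194 TPM in the 4 libraries high in P2ry12 (WT 1, WT 5, S452A 1 and S452A 5) and at 161 to 181 TPM in the other 6. Candidates numbered 6552.

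Of 47 other genes of the pathway, 34 passed the filter and 0 passed in S452A against WT (limma, smallest adjusted p = 0.952), with 15 higher and 19 lower. At an unadjusted p under 0.05 there were 2, Slc29a2 and Pycard, against 4.74% of all tested genes. Slc29a2, a nucleoside transporter, averaged 2.27 ± 0.888 TPM in the WT libraries against 1.10 ± 0.745 in those of S452A (SD, n = 5), which differed by -0.67 (SE 0.30). Pycard, the inflammasome adaptor, averaged 79.8 ± 9.43 and 61.4 ± 9.78 TPM, with a log2 difference of -0.38 (SE 0.13). Of the other genes downstream of P2rx7, Il1b and Il18 differed by 0.33 (SE 0.16) and 0.37 (SE 0.19). Nlrp3 differed by 0.25 (SE 0.26), Casp1 by 0.05 (SE 0.10) and Gsdmd by -0.05 (SE 0.10). The 95% interval of each of these genes included 0.

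The other receptors were few and low. Of 11 further genes with P2X or P2Y receptor symbols 5 passed the filter, led by P2ry2, a receptor for ATP and UTP, at 11.9 TPM on average, P2ry10, which despite its symbol is known for lysophospholipid ligands, at 6.95 and P2ry14, a receptor for UDP-glucose, at 5.90. Adora1, the remaining adenosine receptor, was listed at 0 in 9 of 10 libraries and at 0.05 TPM in S452A library 5. Of 9 further nucleotide enzymes 4 passed, with Bst1, which acts on NAD, at 24.3 TPM, Cd38, of the same family, at 4.79 and Enpp1 at 2.49.

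Genes of adenosine uptake and removal all passed the filter (8 of 8). Pnp, which takes inosine apart, was at 167 TPM on average, far above Ada. The transporters Slc29a1, Slc29a3 and Slc28a2 were at 30.6, 28.5 and 27.6 TPM, and Adk, the adenosine kinase, at 14.9. In this list 7 of 8 genes were lower in S452A and 0 passed, with a median difference of -0.14 against -0.02 over all tested genes. Of the genes that carry the signal of Adora2a and Adora2b inside the cell, Gnas, the stimulatory G protein, was at 287 TPM, Pde4b, which degrades cyclic AMP, at 80.6 and Crem, a cyclic AMP-responsive factor, at 88.2, and 0 of 7 tested passed.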

How the data were processed

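Bulk RNA was sequenced from 5 WT and 5 S452A libraries, made strand-specific from 40 ng of RNA, per the labels' protocols. The submitters' processing notes name STAR 2.7.9a, RSEM 1.3.0 and the build GRCm38.p6, with no parameters or annotation release. The values deposited by the authors are TPM, in which a lower share of one transcript raises the others.

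Columns were matched to samples by description. Values were analysed as log2(TPM + 1) in R 4.3.3 with limma 3.58.1 (trend, 2-sided) on genotype alone. The 13930 genes that reached 1 TPM in 5 or more libraries were fitted and their p-values adjusted by Benjamini-Hochberg, with 0.05 as the limit. Single levels were compared by exact permutation of TPM, and correlations by 100000 permutations of libraries (Python 3.11.15, numpy 2.4.6). Positions and overlaps came from GENCODE M21 (GRCm38), and near-identical copies were searched with blastn 2.17.0 (at least 95% identity over 0.8 of the shorter transcript). The search found no copy of the 10 genes, other than a microRNA gene lying within P2rx7. The fit was tested on simulated data.

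The 10 genes and all lists were chosen with earlier results of these data known. Named are the 10 genes, pathway genes past the filter and the 3 most alike genes of each of the 10. Adora1, Tmigd3 and cell type markers are named outside that rule. Predicted genes were left out of the last group, and for some genes not all 3 are reported here. Alternatives were other pseudocounts, filters and scalings, a replicate block, marker means as covariates, sample weights and leaving out each library.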

Additional observations from a re-analysis of the deposited data

Results flagged for a closer look

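In 8 cases 1 library lay far from the other 4 of its genotype (Dixon's criterion), out of 88 groups of 5 looked at, and chance alone flags about 1 group in 20. Adora2a was at 45.25 TPM in WT library 4 against 17.60 to 23.69 in the other WT libraries. P2rx7 was at 48.82 TPM in S452A library 4 against 25.24 to 30.11. WT library 4 was also high for Il1b (4082.45 TPM against 2776.72 to 2990.64), for P2ry1, an ADP receptor (2.15 against 0.34 to 0.76), and for Slc17a9, a vesicular ATP transporter (4.45 against 0.70 to 1.44). Enpp1 was at 3.82 TPM in WT library 5 against 1.75 to 2.11. In WT library 2, Adcy3, an adenylate cyclase, was at 2.59 TPM against 0.60 to 1.09, and Pde4a, a phosphodiesterase, was low at 1.41 against 1.93 to 2.13.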

How the results depend on the processing

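None of the 10 genes passed the adjusted limit under any of 21 alternatives, and the count at an unadjusted p under 0.05, which was 2, ranged from 0 to 3 when 1 library was left out. The sign of the difference held under every alternative run for Entpd1, Nt5e, Ada, Adora2b, Adora3, P2rx7 and P2ry6. Leaving out 1 library turned it for Adora2a (-0.18 to 0.25), P2rx4 (-0.016 to 0.16) and P2ry12 (-0.30 to 0.00351). With a filter of 5 TPM, which drops Ada and Adora3, 0 of all tested genes passed in place of 1, and with 1 library left out the count was 0 to 1. Over all tested genes the deviations of same-numbered mice from their genotype means correlated at -0.15 to 0.07. Each WT library correlated better with another number than with its own, but the best of several others is high by choice. P2ry12 was high in libraries 1 and 5 of both genotypes, and its SE was 0.16 with the replicate block against 0.30 without it. Whether same-numbered mice shared more than a number was not tested. With the replicate block 0 of the 10 genes passed, and the count at an unadjusted p under 0.05 was 0 in place of 2. The number of correlated pairs, 0, became 2 with genotype means removed (Adora2b with P2ry6 joined Adora2a with Adora2b) and 0 to 3 with 1 library left out. The permutation with genotype means removed took no account of the fitted means, so its p is too small and the 2 pairs may not pass. The number of the 20 relations with pathway lists that passed was 1. It became 5 with a pseudocount of 5, 2 after median rescaling, 0 without the 2 farthest libraries, and 1 to 2 with 1 library left out. The 5 included Adora2a (r = 0.80) and Adora2b (r = 0.76) with the signal list. For Nt5e and fibroblast markers r turned to 0.19 without the 2 farthest libraries. The cause of these moves was not tested, apart from the smaller number of genes or libraries. Depth is unknown, so no counting error can be given for low values such as those of Adora3.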
